A study of Mus musculus with 2 samples.

Results

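The genes described here, 10 in number, code for folding factors of the endoplasmic reticulum (ER) and were followed across the cell types of the aneurysmal mouse aorta: Hspa5, Hsp90b1, Dnajb11, Hyou1, Sdf2l1, Calr, Pdia4, Pdia6, Manf and Creld2. They are 10 of the 55450 gene rows of the count matrices, and each was matched by its symbol to 1 row. The genes were chosen on their measured values in these same libraries, with fibroblasts and Schwann cells set against smooth muscle. Their levels and ratios are therefore given as a description, with no test.

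Proteins that enter the secretory pathway fold in the ER, where chaperones hold unfolded chains, lectins retain glycoproteins and disulfide isomerases set the bonds between cysteines. When unfolded proteins build up, the membrane sensors IRE1, PERK and ATF6 start the unfolded protein response, which raises transcription of chaperone genes, slows translation and speeds the removal of misfolded proteins. Fibroblasts and smooth muscle cells of the aorta secrete collagens, elastin and proteoglycans, and so pass large amounts of cargo through the ER.

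The aortas came from Apoe-/- mice, 12 weeks old, in which Ang II (angiotensin II) had induced an abdominal aneurysm, and which received either an inhibitor or DMSO, a solvent. Apoe-/- mice lack apolipoprotein E and have high plasma cholesterol. Each group is 1 library of 10x Chromium 3' v3 single-cell RNA-seq, and the title initials were read as inhibitor and DMSO from the series design text. The sources used here name neither the inhibitor nor its dose or timing, nor the number of animals per library, and no group without an aneurysm was analysed here. With 1 library per group the libraries cannot be told apart from the treatments. There is no spread between replicates and no test, and every interval below covers counting error only.

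The inhibitor library held 79648307 unique molecular identifiers (UMIs, which tag single captured transcripts) in 8149 barcodes, and the DMSO library 101139161 in 9125. After filtering, 7380 and 8355 cells were kept, with medians of 8994 and 7944 UMIs per cell, and 16 barcode sequences occurred in both libraries. Cells were clustered without the 10 genes and without the marker genes, and clusters were named from marker genes, with "-like" as a reminder that the name rests on markers. The classes compared were fibroblast-like cells (1678 with the inhibitor and 1485 with DMSO), Schwann-like cells, which resemble the glia that wrap nerve fibres (224 and 444), and smooth muscle-like cells (3040 and 739). Levels are in CPM, UMIs of a gene scaled to a total of 1000000 UMIs for the class in its library. In the inhibitor and DMSO libraries the summed level of 10 fibroblast markers was 39424 and 36203 CPM in fibroblast-like cells and 2359 and 6741 in smooth muscle-like cells. That of 10 smooth muscle markers was 49903 and 36121 in smooth muscle-like cells and 2153 and 1607 in fibroblast-like cells. Summed over 11 Schwann cell markers the level was 20459 and 16238 in Schwann-like cells and at most 260.4 in either other class. None of these markers was at 0 in its own class.

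Promoters of this family are known for the ER stress element (ERSE), read by ATF6 and XBP1 together with the factor NF-Y, and its copies are shown as the sequence feature that several of the 10 genes have in common. In RefSeq promoter windows of build GRCm38.p6, from 250 bases before to 50 after the start of transcription, 8 of the 10 genes had an entry; Manf and Hyou1 had none. The motif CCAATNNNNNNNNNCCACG, searched on both strands, lay in 5 of these 8 windows and in 0.119% of all 32851 windows. In the stretches below, written 5′ to 3′ on the strand of the gene, capitals mark the fixed bases of the element or of its reverse complement.
Hspa5, chr2:34772020-34772048, plus strand: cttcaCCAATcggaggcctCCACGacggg
Hsp90b1, chr10:86705633-86705661, minus strand: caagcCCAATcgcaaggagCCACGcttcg
Hsp90b1, chr10:86705528-86705556, minus strand: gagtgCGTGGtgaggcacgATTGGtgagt
Calr, chr8:84847070-84847098, minus strand: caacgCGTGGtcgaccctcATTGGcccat
Pdia6, chr12:17266486-17266514, plus strand: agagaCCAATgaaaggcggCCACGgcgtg
Creld2, chr15:88819515-88819543, plus strand: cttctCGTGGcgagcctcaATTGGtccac
The element began 65 bases before the start in Hspa5, 98 in Pdia6, 126 in Creld2 and 162 in Calr, and Hsp90b1 held it at 212 and 107 bases. The shorter element ATTGGNCCACG was found in Dnajb11 alone, 8 bases after the start, and in 0.0365% of all windows. The core TGACGTG, which XBP1 binds, was found in Hspa5 alone among the 8, 157 bases before the start, and in 2.01% of all windows. The windows of Pdia4 and Sdf2l1 held none of the 3 motifs, only the 5 bases CCACG on one strand or the other, as did 32.8% of all windows. A match is a run of letters and not a measured binding site. The windows with the ERSE include those of Creld2 and Calr, which had the highest and the lowest ratio between the libraries in fibroblast-like cells.

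The binding protein BiP and the factors that work with it were all at least 1.5-fold higher in the inhibitor library in fibroblast-like cells. Hspa5 codes for BiP, the ER member of the HSP70 family, which holds unfolded chains and keeps the sensors silent. In fibroblast-like cells Hspa5 stood at 2439 CPM in the inhibitor library, against 1059 CPM with DMSO; the ratio was 2.30, with an exact 95% interval of 2.27 to 2.34. In Schwann-like cells Hspa5 stood at 1126 and 626 CPM, a ratio of 1.80 (1.67 to 1.94), and in smooth muscle-like cells at 954 and 583 CPM, a ratio of 1.64 (1.60 to 1.68). The inhibitor library was thus higher in all 3 classes, and the ratio was highest in fibroblast-like cells.

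Hsp90b1 codes for the ER member of the HSP90 family, which finishes the folding of a narrower set of clients. It stood at 2101 and 1217 CPM in fibroblast-like cells of the inhibitor and DMSO libraries (ratio 1.73), at 756 and 604 CPM in Schwann-like cells (1.25) and at 726 and 681 CPM in smooth muscle-like cells (1.07). Genes with a ratio of 1.5-fold or more are counted as higher, and those at or beyond the inverse as lower; by that measure Hsp90b1 was higher in fibroblast-like cells alone of these 3 classes. Dnajb11, a J-domain protein that hands clients to BiP, stood at 195 and 106 CPM in fibroblast-like cells (1.84), 96.2 and 63.4 in Schwann-like cells (1.52) and 63.7 and 57.5 in smooth muscle-like cells (1.11).

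Hyou1, the nucleotide exchange factor that frees BiP from its clients, stood at 73.1 and 40.2 CPM in fibroblast-like cells of the inhibitor and DMSO libraries, a ratio of 1.82. In smooth muscle-like cells the 2 libraries gave 28.6 and 29.01 CPM. In Schwann-like cells they gave 42.3 and 31.3 CPM from only 44 and 76 UMIs, with an interval of 0.911 to 1.98. Sdf2l1, which forms a complex with Dnajb11 and keeps unfolded chains soluble, had a ratio above 2-fold in all 3 classes. It stood at 201 and 78.2 CPM in fibroblast-like cells (2.57), at 76.0 and 24.7 CPM in Schwann-like cells (3.07, with an interval of 2.17 to 4.37 from 79 and 60 UMIs) and at 40.2 and 20.04 CPM in smooth muscle-like cells (2.004).

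**Figure D1:**
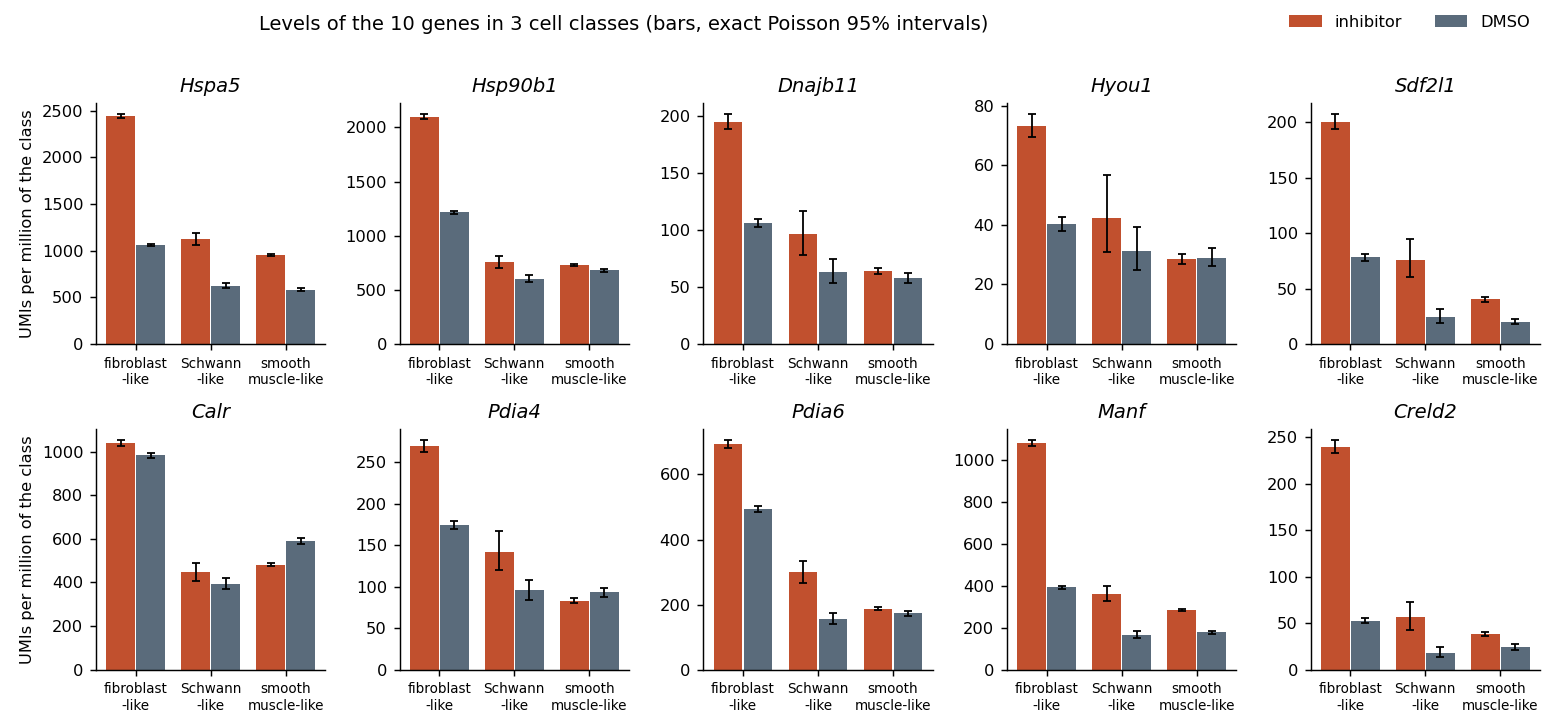
Level of each of the 10 genes in CPM of the class, on an axis that starts at 0 and differs between panels, for fibroblast-like, Schwann-like and smooth muscle-like cells, with the inhibitor library left of the DMSO library. Error lines are exact 95% Poisson intervals of the counts of 1 library. In fibroblast-like cells 8 of 10 genes were at least 1.5-fold higher in the inhibitor library, against 4.79% of all genes. Calr was nearly level there at 1038 and 983.

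In fibroblast-like cells the lectin chaperone and the disulfide isomerases had the lowest ratios of the 10 genes. Calr codes for calreticulin, which binds calcium and retains glycoproteins until they are folded, and it stood at 1038 and 983 CPM in fibroblast-like cells of the inhibitor and DMSO libraries, a ratio of 1.06. Calr stood at 448 and 395 CPM in Schwann-like cells (1.14) and was lower, at 481 and 591 CPM, in smooth muscle-like cells (0.813). It was the only one of the 10 genes under the 1.5-fold limit in all 5 classes that were compared. Pdia4, a disulfide isomerase, stood at 269 and 174 CPM in fibroblast-like cells (1.55), at 142 and 95.6 CPM in Schwann-like cells (1.49, just under the limit) and at 83.0 and 93.3 CPM in smooth muscle-like cells (0.889). Pdia6, another disulfide isomerase, which also acts on the sensor IRE1, stood at 694 and 493 CPM in fibroblast-like cells (1.41), 299 and 157 CPM in Schwann-like cells (1.90) and 188 and 173 CPM in smooth muscle-like cells (1.09). Pdia6 was the only one of the 10 that was counted as higher in Schwann-like but not in fibroblast-like cells. The Pdia6 locus overlaps Atp6v1c2 on the opposite strand, and a processed copy, Calr-ps, exists for Calr. Hsp90b1 overlaps Gm15344 and Gm25745 on the same strand and 1810014B01Rik on the opposite one. Pdia4 overlaps Mir704 on the same strand, and Dnajb11 overlaps Gm30505 on the opposite one. The sources used here do not say how reads shared with any of these were counted.

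The secreted members gave the widest ratios in fibroblast-like cells. Manf codes for a small factor that binds BiP, is released under ER stress and protects neurons, and it stood at 1081 and 394 CPM in fibroblast-like cells of the inhibitor and DMSO libraries, a ratio of 2.75 (2.68 to 2.81). Manf stood at 362 and 167 CPM in Schwann-like cells (2.16) and at 285 and 178 CPM in smooth muscle-like cells (1.60). Creld2 codes for a cysteine-rich protein with EGF-like domains that is induced by ER stress and binds folding cargo. Creld2 stood at 240.1 and 52.4 CPM in fibroblast-like cells, from 4582 and 1521 UMIs, a ratio of 4.58 (4.32 to 4.85). It stood at 56.7 and 18.5 CPM in Schwann-like cells, from 59 and 45 UMIs, a ratio of 3.06 (2.04 to 4.62), and at 38.1 and 24.4 CPM in smooth muscle-like cells, a ratio of 1.56 (1.38 to 1.77). Among the 6099 genes measured in fibroblast-like cells the ratio of Creld2 ranked 3 from the highest, that of Manf 24, Sdf2l1 35 and Hspa5 47, while Calr ranked 2331. The Manf locus overlaps Dcaf1 on the opposite and Rbm15b on the same strand, and how reads of the overlap were counted is not stated.

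Counted together, 8 of the 10 genes were at least 1.5-fold higher in the inhibitor library in fibroblast-like cells, where 4.79% of the 6099 measured genes were. In Schwann-like cells 6 of 10 were higher, against 6.01% of all genes, and in smooth muscle-like cells 4 of 10, against 3.30%. None of the 10 was 1.5-fold lower in these classes, where 6.84%, 5.79% and 6.63% of all genes were lower, in the order fibroblast-like, Schwann-like and smooth muscle-like. The median log2 ratio of the 10 genes, computed after adding 5 CPM, was 0.82 in fibroblast-like cells, 0.70 in Schwann-like cells and 0.13 in smooth muscle-like cells, and the median of all measured genes lay between -0.03 and 0.03. All 10 genes passed the filter on low levels in every comparison. These shares were fixed in part by the choice of the genes, and nothing is read from them about the genes.

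The difference was not limited to the classes named in the choice of the genes. In endothelial-like cells (550 and 900 cells) 6 of 10 genes were higher in the inhibitor library, against 3.94% of all genes, and in macrophage-like cells (647 and 1575) 4 of 10, against 2.67%. Creld2 stood at 83.7 and 29.7 CPM in endothelial-like cells (2.82) and at 86.9 and 44.2 CPM in macrophage-like cells (1.96). Hspa5 stood at 1122 and 652 CPM in endothelial-like cells (1.72) but at 1593 and 1394 CPM in macrophage-like cells (1.14). Hsp90b1 had its highest ratio of the 5 classes in endothelial-like cells, at 1.83.

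**Figure D2:**
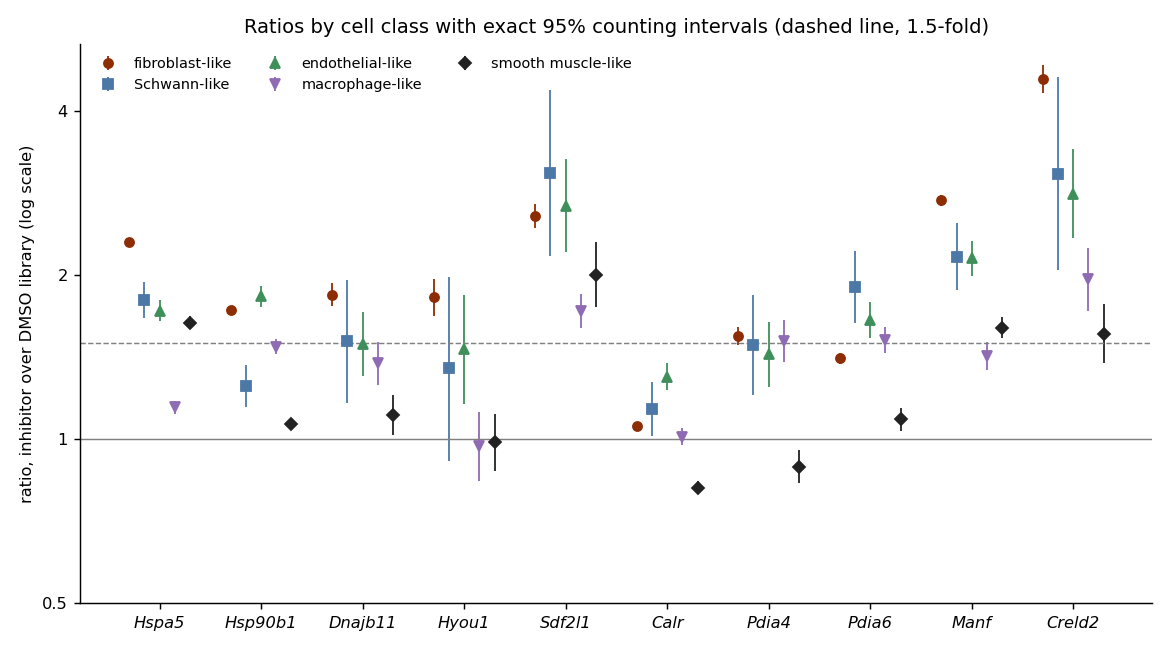
Ratio of the inhibitor to the DMSO library on a log axis for each of the 10 genes in 5 cell classes, with exact 95% counting intervals; the dashed line marks 1.5-fold. Creld2 lies highest in fibroblast-like cells, at 4.58, and Calr lies between 0.813 in smooth muscle-like and 1.30 in endothelial-like cells.

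For these genes the order of the cell classes was also different in the 2 libraries. Over the 9 classes with at least 50 cells in the inhibitor library, fibroblast-like cells held the highest level of 9 of the 10 genes, the exception being Sdf2l1, at 276 CPM in macrophage-like and 201 CPM in fibroblast-like cells. Over the 10 such classes of the DMSO library, fibroblast-like cells held the highest level of 5 genes, macrophage-like cells of 4 (Hspa5, Sdf2l1, Dnajb11 and Hyou1) and adipocyte-like cells of 1 (Creld2). The share of all genes with their highest level in each class was not computed, so these counts only describe the 10 genes. Hspa5 in the inhibitor library ran from 2439 CPM in fibroblast-like and 1807 in lymphatic endothelial-like cells to 711 in neutrophil-like and 678 in T cell-like cells. Neutrophil-like and T cell-like cells went the other way, with 840 and 835 CPM of Hspa5 in the DMSO library, though the inhibitor library held only 50 and 67 of these cells. Schwann-like and endothelial-like cells of the inhibitor library were level at 1126 and 1122 CPM. In the DMSO library Hspa5 ran from 1394 CPM in macrophage-like, 1145 in adipocyte-like and 1059 in fibroblast-like cells down to 583 in smooth muscle-like and 506 in dendritic-like cells. Creld2 stood at 145.5 CPM in lymphatic endothelial-like cells of the inhibitor library (88 cells) and at 26.3 CPM in those of the DMSO library (133 cells). T cell-like cells had 20.8 CPM of Creld2 in the inhibitor library (67 cells, interval 7.62 to 45.2) and 30.9 CPM in the DMSO library (238 cells, 21.4 to 43.2), and these intervals overlapped.

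Within each library, fibroblast-like cells stood above smooth muscle-like cells for nearly all of the genes. In the inhibitor library 10 of 10 genes were at least 1.5-fold higher in fibroblast-like than in smooth muscle-like cells, against 23.3% of all genes, with ratios from 2.16 for Calr to 6.29 for Creld2. In the DMSO library 9 of 10 were, against 18.6% of all genes, with ratios from 1.38 for Hyou1, the exception, to 3.90 for Sdf2l1. The ratio of Creld2 in the DMSO library was 2.15 and that of Manf 2.21, against 3.79 for Manf in the inhibitor library. The gap between the classes was wider in the inhibitor library for each of the 10 genes, by 0.37 on the log2 scale for Pdia6 and Calr up to 1.54 for Creld2. The genes were chosen with these classes set against each other, and the share of all genes with a wider gap was not computed. This count therefore only describes the 10 genes. Because the classes share their libraries, these gaps are the same quantity as the difference between the class ratios above.

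Schwann-like cells stood closer to smooth muscle-like cells. In the inhibitor library 4 of 10 genes were at least 1.5-fold higher in Schwann-like than in smooth muscle-like cells (Sdf2l1 at 1.89, Pdia4 at 1.72, Pdia6 at 1.59 and Dnajb11 at 1.51), against 37.2% of all genes. In the DMSO library 0 of 10 were, against 32.6%, and Calr was lowest with a ratio of 0.668. Over all genes the median log2 ratio of these comparisons was 0.27 and 0.20, and under median of ratios scaling, which takes account of such a shift, the counts were 1 and 0. They became 0 and 1 with the cluster makeup held equal, and 6 and 5 without the smooth muscle-like cluster described next. The share of all genes was not computed under these alternatives. No standing order of Schwann-like and smooth muscle-like cells can therefore be given for these genes.

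For each of the 10 genes the ratio of the whole smooth muscle-like class lay below that of every one of its clusters. The share of all genes with this pattern was not computed, so it is not read as particular to the 10. Smooth muscle-like cells formed 3 clusters: cluster 0, led by Mylk4, Sost and Itga8; cluster 1, led by Des and Sorbs2; and cluster 13, led by Igfbp2, Acan and Eln. Cluster 13 made up 4.84% of the smooth muscle-like cells of the inhibitor library and 35.2% of those of the DMSO library. It also had higher levels of the chaperones, with Hspa5 at 2328 and 807 CPM in the inhibitor and DMSO libraries, against 832 and 425 CPM in cluster 0 and 840.3 and 362 CPM in cluster 1. The ratio of Hspa5 was thus 2.89 in cluster 13, 1.96 in cluster 0 and 2.32 in cluster 1, each above the class value of 1.64. Sdf2l1 went further, with ratios from 4.03 to 4.38 in the 3 clusters and 2.004 for the class. Creld2 had ratios from 1.73 to 3.47 in the clusters, and Manf from 2.18 to 2.62.

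In fibroblast-like cells the difference between the libraries was also present within the clusters compared, to a degree that varied by gene. Cluster 32, with 8 inhibitor and 66 DMSO cells, was not compared. All 6 fibroblast-like clusters with at least 20 cells in each library had higher Hspa5 (ratios 2.06 to 2.94), Hsp90b1 (1.54 to 2.18), Creld2 (4.11 to 5.52), Sdf2l1 (2.62 to 4.10), Manf (2.14 to 3.46) and Dnajb11 (1.64 to 2.47) in the inhibitor library. The clusters had different leading genes: cluster 3 was led by Angptl7 and Fmod, cluster 5 by Nkain4 and Igfbp6, cluster 6 by Mmp3, Timp1 and Il6, cluster 8 by Cd55 and Pi16, and cluster 29 by the division genes Ube2c and Cdk1. Clusters 3 and 5 made up 40.1% and 34.9% of the fibroblast-like cells of the inhibitor library and 10.8% and 9.97% of those of the DMSO library. Creld2 stood between 177 and 293 CPM in the 6 clusters of the inhibitor library and between 35.9 and 60.1 CPM in those of the DMSO library. Clusters of 1 library are not replicates. The other genes fell below 1.5-fold in some or all of these clusters. Ratios ran from 1.17 to 2.51 for Pdia4, from 1.32 to 1.95 for Pdia6, from 1.29 to 2.90 for Hyou1 and from 1.01 to 1.39 for Calr. The interval held 1 for Hyou1 in clusters 5 and 29 and for Calr in cluster 31. Cluster 7, with 217 and 458 cells, held 10 of 10 fibroblast markers but stayed unnamed because its leading genes, Penk and Cxcl13 first, included a marker of another class; there 8 of 10 genes were higher, against 7.1% of all genes, with Creld2 at 258 and 52.7 CPM.

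With the cluster makeup of each class held at the mean of the 2 libraries, 9 of the 10 genes were higher in fibroblast-like cells, against 1.8% of all genes. In Schwann-like cells 7 were, against 5.52%, and in smooth muscle-like cells 5, against 2.02%. The median log2 ratio of the 10 genes was then 0.95 in fibroblast-like, 0.72 in Schwann-like and 0.63 in smooth muscle-like cells, the last against 0.13 as first given. Creld2 kept a wide gap, with log2 ratios of 2.20 in fibroblast-like and 1.07 in smooth muscle-like cells. Hspa5 stood at 1.39 in fibroblast-like and 1.21 in smooth muscle-like cells, where the class values were 1.20 and 0.71. Pdia6 stood at 0.73 and 0.72, and Sdf2l1 turned to 1.66 in fibroblast-like and 1.74 in smooth muscle-like cells. Of the members with ratios below 1 in smooth muscle-like cells, Calr became 0.10, Pdia4 0.35 and Hyou1 0.40. With equal makeup the ratio was thus higher in fibroblast-like than in smooth muscle-like cells for 9 of the 10 genes, all but Sdf2l1. For each of these the gap was smaller than in the classes as found, and for Pdia6 the 2 classes were nearly level. The share of all genes with a higher ratio in fibroblast-like cells was not computed here, so this count only describes the 10 genes.

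**Figure D3:**
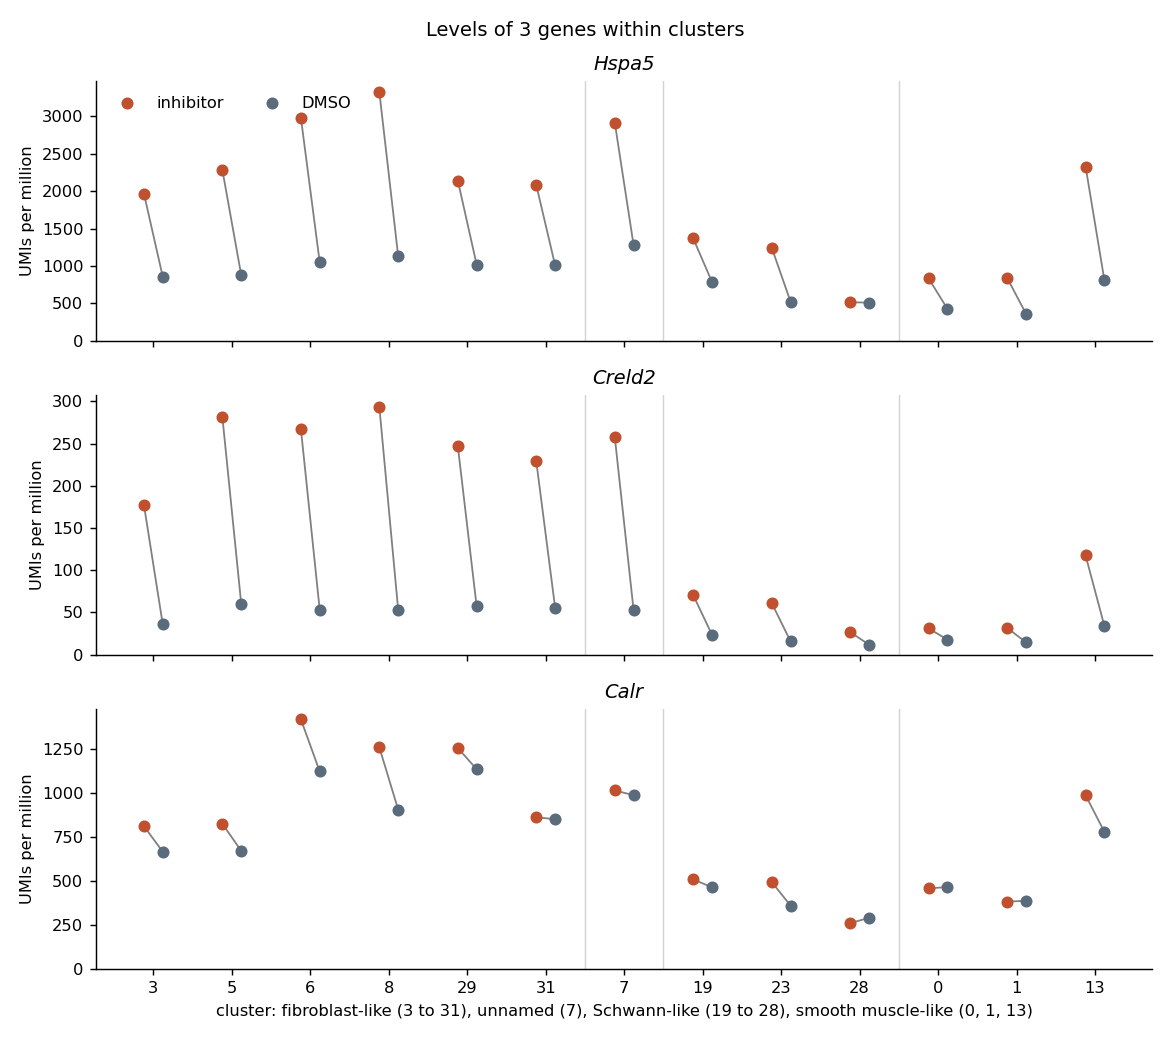
Levels of Hspa5, Creld2 and Calr in CPM within 13 clusters, each with the inhibitor library left of the DMSO library and joined by a line. Hspa5 is higher in the inhibitor library in 12 of the 13 clusters by at least 1.5-fold, the exception being Schwann-like cluster 28 at 514 and 509, while the ratio of Calr stays between 0.893 and 1.39.

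Schwann-like cells divided in another way. In cluster 19, led by Kcna1 and Cdh19, 6 of 10 genes were higher in the inhibitor library, against 13.7% of all genes there. In cluster 23, led by Fabp7 and Ptn, 8 of 10 were, against 10.9%, with Hspa5 at 1245 and 522 CPM (2.38) and Pdia6 at 388 and 144 CPM (2.70). In cluster 28, with the myelin genes Mbp and Prx among its leading genes, Hspa5 stood at 514 and 509 CPM (1.01, interval 0.778 to 1.31). Cluster 28 held 71 and 66 cells with few UMIs of most members. Sdf2l1 was at 0 in its DMSO cells, the intervals of the other 9 genes held 1, that of Creld2 running from 0.480 to 13.9, and no direction is given for any of them there. The interval of Hspa5 in cluster 28 ended at 1.31, below the lower bounds of 1.55 in cluster 19 and 2.13 in cluster 23. Cluster 28 made up 31.7% of the Schwann-like cells of the inhibitor library and 14.9% of those of the DMSO library.

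Detection in single cells was compared at equal depth. Fibroblast-like cells of the inhibitor library were shallower than those of the DMSO library, with medians of 9088 and 16341 UMIs, so each cell was thinned at random to 2000 UMIs; 74 and 21 shallower cells were left out. Creld2 was then detected in 29.6% of fibroblast-like cells of the inhibitor library (exact Clopper-Pearson 95% interval 27.3% to 31.9%) and 9.77% of those of the DMSO library (8.29% to 11.4%). The shares were 12.6% and 4.15% in Schwann-like cells, and 5.64% and 3.53% in smooth muscle-like cells. Without thinning the shares were 63.4% and 47.7%, 21.4% and 9.68%, and 27.9% and 27.5%. Manf was detected in 72.3% and 45.6% of thinned fibroblast-like cells, 40.9% and 24.9% of Schwann-like cells, and 34.3% and 21.6% of smooth muscle-like cells. At equal depth 9 of 10 genes were detected in a larger share of fibroblast-like cells of the inhibitor library, where 45.1% of all genes were. In Schwann-like cells 10 of 10 were, against 52% of all genes, and in smooth muscle-like cells 6 of 10, against 44.9%. Without thinning the count in fibroblast-like cells was 2, against 3.23% of all genes. No class is known to lack these genes, so their level in free RNA cannot be read from the members; Acta2, a smooth muscle gene, reached 449.9 and 194 CPM in T cell-like cells, 2.27% and 1.34% of its level in smooth muscle-like cells.

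The 10 genes together made up a median of 13 of 2000 UMIs in fibroblast-like cells of the inhibitor library and 8 in those of the DMSO library. The medians were 5 and 3 in Schwann-like cells and 4 and 4 in smooth muscle-like cells. In fibroblast-like cells the 10th percentile was 4 and 3 and the 90th percentile 28 and 14, so the upper part of the distribution differed by more than its lower part. The 10% of cells with the most of these UMIs held 22.7% and 20.2% of them.

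**Figure D4:**
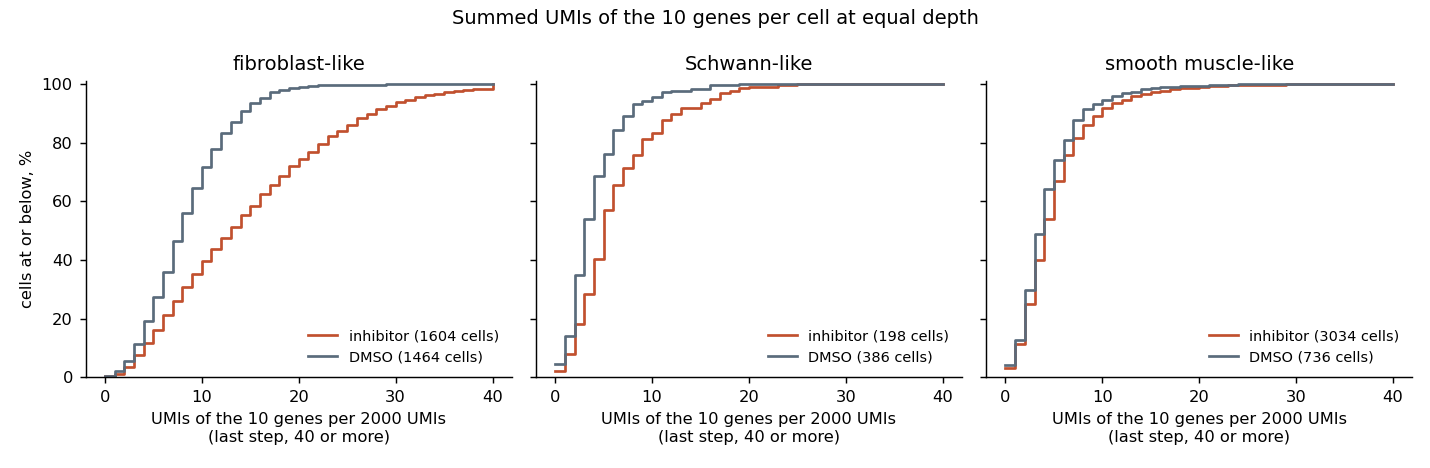
Share of cells, in percent, whose summed UMIs of the 10 genes lie at or below the value on the x axis after each cell was thinned to 2000 UMIs, for the inhibitor and DMSO libraries. The curves are apart in fibroblast-like cells, with medians of 13 and 8, and close in smooth muscle-like cells, with medians of 4 and 4.

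Fibroblast-like cells in which Creld2 was detected also held more of most other members. In thinned fibroblast-like cells of the inhibitor library, Hspa5 averaged 6.07 UMIs in the 474 cells with Creld2 and 3.46 in the 1130 cells without it, a ratio of 1.75, and Manf averaged 3.01 and 1.59, a ratio of 1.89. The collagen gene Col1a1 averaged 17.3 and 17.8 and the smooth muscle gene Acta2 1.02 and 1.47 in the same cells. The other non-member genes compared were higher in cells with Creld2, with ratios of 1.35 for Herpud1, 1.24 for Ddit3, 1.14 for Ppib and 1.12 for Hspa8. The other 9 members were all higher in cells with Creld2 in the inhibitor library. In the DMSO library 7 of 9 were, over 143 cells with Creld2 and 1321 without, with ratios of 1.43 for Hspa5 and 1.22 for Manf, but 0.892 for Dnajb11 and 0.577 for Hyou1. Within single fibroblast-like clusters of the inhibitor library the ratio of Hspa5 was 1.84 in cluster 3, 1.83 in cluster 5, 1.33 in cluster 6 and 1.61 in cluster 8. The share of all genes that were higher in cells with Creld2 was not computed, so these counts are not read as particular to the members. All cells of a comparison come from 1 library and are not replicates.

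Other genes of the pathway were taken from lists chosen with earlier results of these data known. Of 24 measured other ER folding genes, 3 were higher in the inhibitor library in fibroblast-like cells: Dnajc3, a BiP co-chaperone that also restrains PERK, at 792 and 397 CPM, Dnajb9, a BiP co-chaperone that represses IRE1, at 181 and 116 CPM, and Fkbp2, a prolyl isomerase, at 211 and 136 CPM. None of these genes was lower there. In Schwann-like cells 2 of 22 were higher, the collagen chaperone gene Serpinh1 (609 and 384 CPM) and Creld1, the paralog of Creld2 (42.3 and 28.01 CPM). In smooth muscle-like cells 0 of 24 were higher and Fkbp10, a prolyl isomerase that acts on collagen, was lower (72.6 and 123 CPM).

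Of the ER degradation genes, 3 of 15 were higher in fibroblast-like, 3 of 15 in Schwann-like and 1 of 13 in smooth muscle-like cells, and none was lower. Herpud1, a membrane component of the degradation complex, was higher in all 3, at 576 and 205 CPM in fibroblast-like, 263 and 143 CPM in Schwann-like and 194 and 122 CPM in smooth muscle-like cells. Selenos was higher in fibroblast-like cells (418 and 249 CPM) and in Schwann-like cells (209.7 and 133 CPM). Derl2 was higher in fibroblast-like cells (101.5 and 66.3 CPM), and Edem2 in Schwann-like cells, at 28.9 and 17.3 CPM from 30 and 42 UMIs. The median log2 ratio of the list was 0.34, 0.17 and -0.09 in the 3 classes.

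In the class totals the sensors and transcription factors differed little. None of 6 measured was higher or lower in fibroblast-like cells, none of 5 in Schwann-like cells, and 1 of 7 was lower in smooth muscle-like cells, Creb3l1, at 30.4 and 56.7 CPM. Xbp1, whose mRNA is spliced by IRE1 and also rises in the response, stood at 253 and 186 CPM in fibroblast-like cells (1.36), 139 and 93.1 CPM in Schwann-like cells (1.498, just under the limit) and 129.7 and 97.0 CPM in smooth muscle-like cells (1.34). Within smooth muscle-like clusters 0, 1 and 13 the ratio of Xbp1 was 1.66, 1.52 and 1.60, each above the class value and past the limit. It ran from 1.05 to 1.64 in fibroblast-like clusters and from 1.48 to 1.64 in Schwann-like clusters. Spliced and unspliced forms of Xbp1 are not separated by these counts. Of the genes of the integrated stress response, the PERK and ATF4 branch, 2 of 12 were higher and 2 lower in fibroblast-like cells. Phgdh, of serine synthesis, stood at 56.1 and 26.9 CPM and Nupr1 at 1586 and 947 CPM, while Atf3 stood at 32.2 and 96.6 CPM and Ddit4 at 22.2 and 40.9 CPM. In Schwann-like cells Atf3 and Cebpb were lower and no gene of this list was higher. In smooth muscle-like cells Atf3 was higher (204 and 102 CPM) and Nupr1 lower (1104 and 1962 CPM). Ddit3, which codes for the death-promoting factor CHOP, stood at 115 and 81.9 CPM in fibroblast-like cells (1.41), and Atf4 itself at 191 and 211 CPM (0.905).

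The machinery that brings proteins into and out of the ER was close to level. Of 23 translocon and glycosylation genes 2 were higher in fibroblast-like cells, Sec11c (122 and 65.1 CPM) and Spcs2 (328 and 214 CPM), both subunits of the signal peptidase. In Schwann-like cells Srprb was higher and Stt3a lower, and in smooth muscle-like cells Sec61a1 was lower (79.6 and 123 CPM). Of 20 ER to Golgi transport genes only Sec23b was higher in fibroblast-like cells (48.1 and 29.1 CPM), and none passed the limit in the other 2 classes.

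Matrix cargo did not follow the chaperones. In fibroblast-like cells 2 of 20 secreted matrix genes were higher, Fmod (343 and 90.6 CPM) and Eln (1657 and 1004 CPM), and 4 were lower, led by Thbs1 (32.5 and 82.5 CPM), Fn1 (1146 and 2487 CPM) and Postn (352 and 735 CPM). The list median was a log2 ratio of -0.09. In smooth muscle-like cells 14 of 20 were lower, with Lum at 115 and 946 CPM, Fmod at 4.95 and 36.7 CPM and Dcn at 141 and 712 CPM, and the median was -0.95. In Schwann-like cells 5 of 18 were lower, and they included Fbn1, Dcn and Col1a1. Eln is a leading gene of cluster 13, whose share of smooth muscle-like cells was 4.84% and 35.2%, and its part in the values of the class was not tested.

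The genes of the cytosolic heat shock list, which answer to HSF1 and not to the ER sensors, had a higher median ratio in smooth muscle-like than in fibroblast-like or Schwann-like cells. Despite its name the list also holds Hspd1 and Hspe1, which code for mitochondrial chaperonins. All 20 measured were higher in the inhibitor library in smooth muscle-like cells, with a median log2 ratio of 1.76; Hspa1b stood at 1612 and 197 CPM and Hspb1 at 12579.8 and 2135 CPM. In fibroblast-like cells 12 of 20 were higher (median 0.66), Hsph1 at 179 and 68.2 CPM and Cryab at 481 and 199 CPM among them. In Schwann-like cells 12 of 19 were higher (median 0.63) and 1, Hspa1a at 314 and 589.9 CPM, was lower. In the inhibitor library 19 of 20 were at least 1.5-fold lower in fibroblast-like than in smooth muscle-like cells, where the 10 ER genes were all higher. Heat shock genes and immediate early genes also move with the handling of tissue. Of 12 immediate early genes 5 were lower in fibroblast-like, 7 in Schwann-like and 8 in smooth muscle-like cells of the inhibitor library, and Jund was higher in smooth muscle-like cells. Their part in the difference of the 10 genes was not tested.

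**Figure D5:**
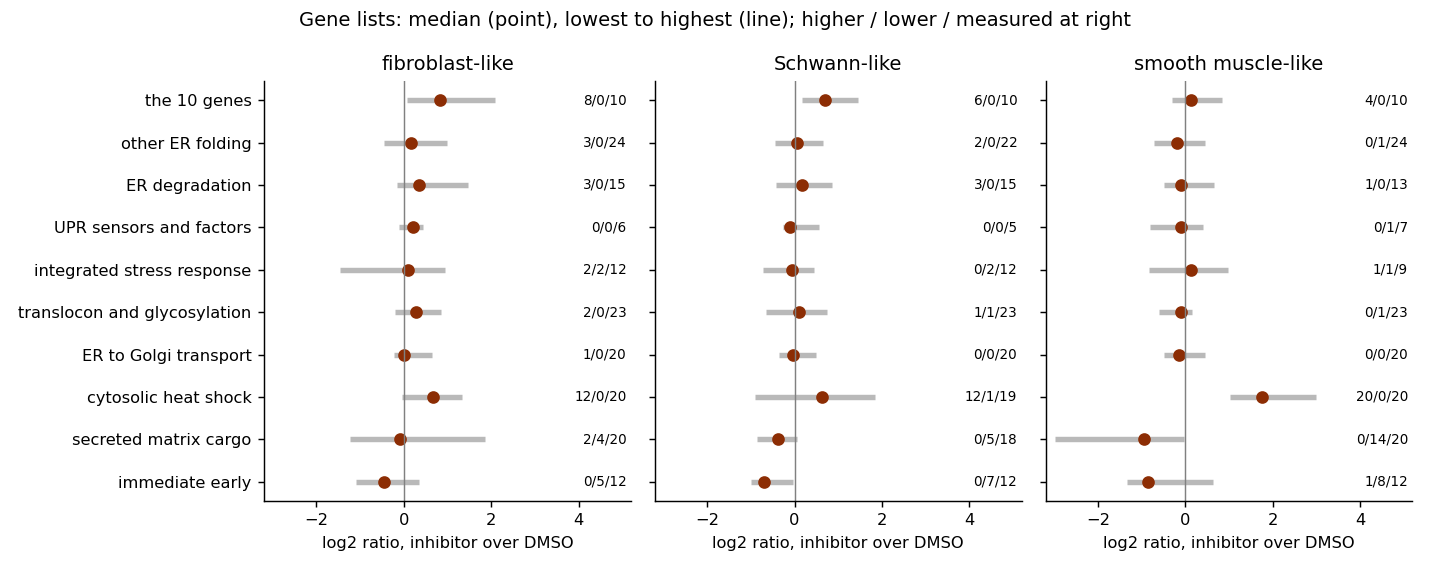
Log2 ratio of the inhibitor to the DMSO library for 10 gene lists in 3 classes; points are medians and lines run from the lowest to the highest gene, and the numbers give genes at least 1.5-fold higher, lower and measured. The 10 genes and the cytosolic heat shock list lie to the right of 0 in fibroblast-like cells, at 0.82 and 0.66, and the heat shock list lies far to the right in smooth muscle-like cells, at 1.76.

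Markers of other cells were low in fibroblast-like cells beside those of their own class. The summed level of 10 macrophage markers in fibroblast-like cells was 79.6 CPM with the inhibitor and 274 CPM with DMSO, with no marker at 0, and in smooth muscle-like cells it was 67.4 and 179 CPM. The plasma cell markers, whose cells are rich in ER chaperones, summed to 69.5 and 124 CPM in fibroblast-like cells, almost all of it from Sdc1, with 2 and 4 of the 6 markers at 0. The 10 smooth muscle markers, higher in the inhibitor library like the chaperones, summed there to 2153 and 1607 CPM with none at 0, and their part in the ratios was not tested.

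By profile over 19 pairs of a class and a library, the genes outside all lists that were most like the mean of the 10 were Naa20 (Pearson r of log2 levels 0.87), Hint1 (0.85), Slc35b1 (0.81), Ppp1r14b (0.80) and Snrpa (0.80), out of 7015 genes compared. The members themselves gave r from 0.79 for Creld2 to 0.95 for Pdia6 and Manf, which is partly because each is part of the mean. Xbp1 gave 0.29 and Atf4 -0.59. The pairs share 2 libraries and differ in depth, and these values describe the profiles only.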

How the data were processed

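The authors deposited whole-number UMI counts for each gene in each cell barcode, unnormalised. Per the file headers they came from Cell Ranger 6.1.1. The genome build GRCm38 and Seurat stand in the submitters' processing notes without their role. All 55450 gene rows matched GENCODE M21. Every deposited barcode held at least 500 UMIs. Cells under 200 genes or above 20% mitochondrial UMIs were left out. Scrublet (expected rate 6%) removed 477 inhibitor and 309 DMSO cells; its automatic threshold for DMSO (0.573) marked 0.0115% of cells, so the inhibitor threshold (0.198) was used for both. Both libraries were clustered together in scanpy 1.11.5 (2000 variable genes without listed genes and markers, 30 components, 15 neighbours, Leiden resolution 1), giving 47 clusters. Naming asked for 3 or more detected markers, a score lead of 0.5, set after the clusters had been seen, and leading genes that did not hold more markers of another class; 15 clusters stayed unnamed, with 894 inhibitor and 1699 DMSO cells. Within each library, UMIs of all cells of a class were added up and scaled to a total of 1000000 (CPM). Ratios have exact conditional 95% intervals, shares exact Clopper-Pearson ones, and log2 ratios were taken after adding 5 CPM. Genes with at least 20 CPM as a mean of the groups compared and at least 20 UMIs were measured. Ratios and calls were checked on simulated counts. The members, lists and alternatives were chosen with earlier results of these data known. Named genes were all 10 members and, per other list, class and direction, up to 3 with the largest ratios; Xbp1, Ddit3 and Atf4 were added for their role, with their values known. The likeness search took the 5 genes in no list with the highest r and a mean of at least 20 CPM.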

Additional observations from a re-analysis of the deposited data

Results flagged for a closer look

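Calr, Pdia4 and Hyou1 had ratios on opposite sides of 1 in 2 cell classes of the same libraries. Calr had a log2 ratio of inhibitor to DMSO of 0.08 in fibroblast-like and -0.30 in smooth muscle-like cells, a difference of 0.37, and Schwann-like cells exceeded smooth muscle-like cells by 0.48. For Pdia4 the value in smooth muscle-like cells was -0.16, below fibroblast-like cells by a difference of 0.77 and below Schwann-like cells by a difference of 0.71. For Hyou1 it was -0.02, with differences of 0.81 and 0.40. None of these differences was tested, since there is 1 library per group. Within the 3 smooth muscle-like clusters Pdia4 had ratios of 1.11 to 1.59, Hyou1 of 1.17 to 1.66 and Calr of 0.982 to 1.27.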

How the results depend on the processing

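Each count and log2 ratio was recomputed under 12 alternatives chosen at the start and 3 chosen after seeing the data, which named clusters without regard to their leading genes, named them with no lead in score, or left out smooth muscle-like cluster 13. The counts of genes higher in the inhibitor library ran within 1.5 times of those given in every alternative except a limit of 2-fold, which left 4 in fibroblast-like, 3 in Schwann-like and 1 in smooth muscle-like cells. That limit also left 4 genes higher in fibroblast-like than smooth muscle-like cells of the DMSO library and 0 higher in Schwann-like than smooth muscle-like cells of the inhibitor library. The share of all genes was not computed for that limit, nor for the alternatives of the Schwann-like comparison named next. The comparison of Schwann-like with smooth muscle-like cells was the least stable: in the inhibitor library it gave 1 under median of ratios scaling and 0 with makeup held equal, and in the DMSO library 1 with doublets kept, 1 with makeup held equal and 5 without cluster 13. The cause was not tested. Without thinning, 2 genes were detected in a larger share of fibroblast-like cells of the inhibitor library. No gene counted as higher changed sign. In smooth muscle-like cells Calr kept its sign in 14, Pdia4 in 13 and Hyou1 in 11 of 15 alternatives. Over 15 alternatives the log2 ratio in fibroblast-like cells ran from 1.99 to 2.20 for Creld2 and from 1.03 to 1.39 for Hspa5. Not all of these alternatives could move a value. The limit of 2-fold and the removal of the minimum on CPM could not alter any log2 ratio of the members. Every member had passed that minimum, so its removal could not alter their counts either. Naming with no lead in score and leaving out cluster 13 left the fibroblast-like cells as they were. Schwann-like cells stayed at 224 and 444 under Leiden resolutions of 0.5 and 2 and under the 3 alternatives chosen after seeing the data. Every Schwann-like and smooth muscle-like cluster had at least 20 cells in each library, so keeping only such clusters altered nothing in these classes. The sign counts given for Calr, Pdia4 and Hyou1 include alternatives that could not move them. Unchanged values under such alternatives are no sign of stability. No paired analysis was possible because each group has 1 library. Depth limits Creld2, Hyou1 and Sdf2l1 in Schwann-like cells, with 44 to 79 UMIs in the inhibitor library, and the single library per group limits every comparison.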

Other observations

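Cluster 22 (174 inhibitor and 68 DMSO cells) held 9 of 10 smooth muscle markers but had a median of 913 UMIs per cell and was left unnamed. Hspa5 stood there at 752 CPM in inhibitor cells and 1096 CPM in DMSO cells (ratio 0.687, interval 0.534 to 0.887).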
